A study of Drosophila melanogaster with 24 samples.

Results

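Spliceosomal small nuclear RNAs (snRNAs) and small Cajal body RNAs (scaRNAs) were followed through an RNA immunoprecipitation (RIP-seq) experiment on fly heads. They were taken as every gene symbol in the count tables that begins with snRNA:U or scaRNA:, without snRNA:7SK. This prefix found 45 of the 17753 gene symbols, of which 30 were snRNA and 15 scaRNA symbols. Among the 30, snRNA:U3 carries the name of a small nucleolar RNA of ribosome synthesis rather than of the spliceosome, and it had 0 counts in every library.

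RNA came from heads of adult female Drosophila melanogaster of 3 genotypes, and their age was not given in the sources used here. Heads of elav>Nab2-FLAG flies made FLAG-tagged Nab2, heads of elav>Atx2-3xFLAG flies made Atx2 with a triple FLAG tag, and control heads carried elav>Gal4 alone, the driver that both tagged genotypes also need. The elav driver is used to express transgenes in neurons, whereas a head lysate holds RNA of every cell type of the head. Each of 12 lysates, 4 per genotype, pooled 300 heads fixed in formaldehyde. A share of 20% was kept as Input and 80% went onto anti-FLAG beads, which gave 6 groups of 4 libraries: Nab2-FLAG RIP, Atx2-3xFLAG RIP, control RIP and the matching Inputs. The stated purpose was to find RNAs that associate with Nab2 and Atx2 in brain neurons.

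Each spliceosomal snRNA is the RNA core of a small nuclear ribonucleoprotein (snRNP). U1 pairs with the upstream splice site of an intron and U2 with its branch point, after which U4, U5 and U6 join as a tri-snRNP; U4 then leaves, and U6 with U2 and U5 forms the active centre. A minor spliceosome removes a rare class of introns, and there U11, U12, U4atac and U6atac stand in for U1, U2, U4 and U6 while U5 is shared. U7 belongs to the machinery that cuts the ends of histone mRNAs, and scaRNAs guide the methylation and pseudouridylation of snRNAs. Nab2 is a zinc-finger protein that binds polyadenosine RNA, and Atx2, the fly homologue of human ataxin-2, is a regulator of mRNA translation and stability. Most fly snRNAs are made from several nearly identical gene copies.

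The libraries held between 220894 counts, in control RIP replicate 3, and 2109561 counts, in Nab2-FLAG RIP replicate 1. All 45 members together received 78353 counts, which was 0.205% to 0.433% of a Nab2-FLAG RIP library, 0.229% to 0.449% of an Atx2-3xFLAG RIP library and 0.0933% to 0.211% of a control RIP library. A set of 4 Input libraries stood apart before any comparison: in Nab2-FLAG Input 4, Atx2-3xFLAG Input 3, Atx2-3xFLAG Input 4 and control Input 4 the members took 0.575% to 0.656% of counts, against 0.191% to 0.311% in the other 8 Inputs. The snoRNA share moved with it, at 0.351% to 0.454% in these 4 Inputs and 0.199% to 0.261% in the other 8. Some of the counts and calls below are given also without these 4 lysates, which takes replicates 3 and 4 from Atx2-3xFLAG and replicate 4 from each other genotype. Nab2 itself, the check of the labels, was higher in Nab2-FLAG than in control libraries by a log2 of 2.25 in Input and 2.06 in RIP (edgeR quasi-likelihood, adjusted p = 7.11e-12 and 1.15e-12). Atx2 differed from control by 0.09 and 0.18 in the Atx2-3xFLAG libraries and did not pass, so its counts do not check that label.

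Levels are given as CPM, counts scaled to a common library total, on library sizes scaled by the trimmed mean of M values, and as CPM per kilobase of gene length (CPM per kb) where different RNAs are set side by side. RNA was purified over silica columns, and RIP RNA alone was also concentrated on beads before library construction, per the labels. How much RNA as short as an snRNA these steps kept was not measured, so levels are those of counts, not of molecules, and any loss or gain shared by all RIP libraries cannot be told apart from immunoprecipitation in a comparison of RIP with Input.

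U4 and U5 were the most counted types. They received 41.6% and 42.2% of all member counts. Per length, U4 stood at 10719 ± 3245 CPM per kb in Nab2-FLAG Input, 13185 ± 3683 in that of Atx2-3xFLAG and 13564 ± 5339 in that of the control (SD, n = 4 each). U5 stood at 13428 ± 10566, 19929 ± 10641 and 12127 ± 10601 CPM per kb in the same Inputs, a spread as large as its distance from U4. U1 followed at 1091 ± 167, 1086 ± 227 and 908 ± 237 CPM per kb. U11, the counterpart of U1 in the minor spliceosome, had 502 ± 118, 529.8 ± 79.9 and 810.0 ± 178 CPM per kb, so that in control Input U1 and U11 lay within their spreads of each other. U4atac stood at 327 ± 81.0, 468 ± 171 and 475 ± 237 CPM per kb, and U12 at 32.8 ± 23.7, 40.6 ± 22.8 and 46.4 ± 17. U2 held no fixed place in this order, with 436 ± 67.4, 688 ± 129 and 38.1 ± 26.8 CPM per kb.

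In the RIP libraries U4 and U5 again came first. U5 had 9498 ± 4523, 9953 ± 3959.8 and 2959 ± 1040.0 CPM per kb in Nab2-FLAG, Atx2-3xFLAG and control RIP, and U4 had 7576 ± 2575, 7742 ± 1729 and 5061 ± 1718. U1 had 467 ± 152, 492 ± 39.8 and 250.4 ± 78.7 CPM per kb, and U11 had 618 ± 89.0, 595 ± 82.6 and 1308 ± 293. In control RIP every U11 value lay above every U1 value per length, whereas in tagged RIP the ranges of the pair overlapped. U4atac had 281 ± 85.3, 334 ± 92.0 and 239.7 ± 125 CPM per kb, U12 had 45.2 ± 12.3, 70.4 ± 19.9 and 92.8 ± 37.2, and U2 had 458 ± 66.4, 696 ± 207 and 26.1 ± 16.2.

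**Figure D1:**
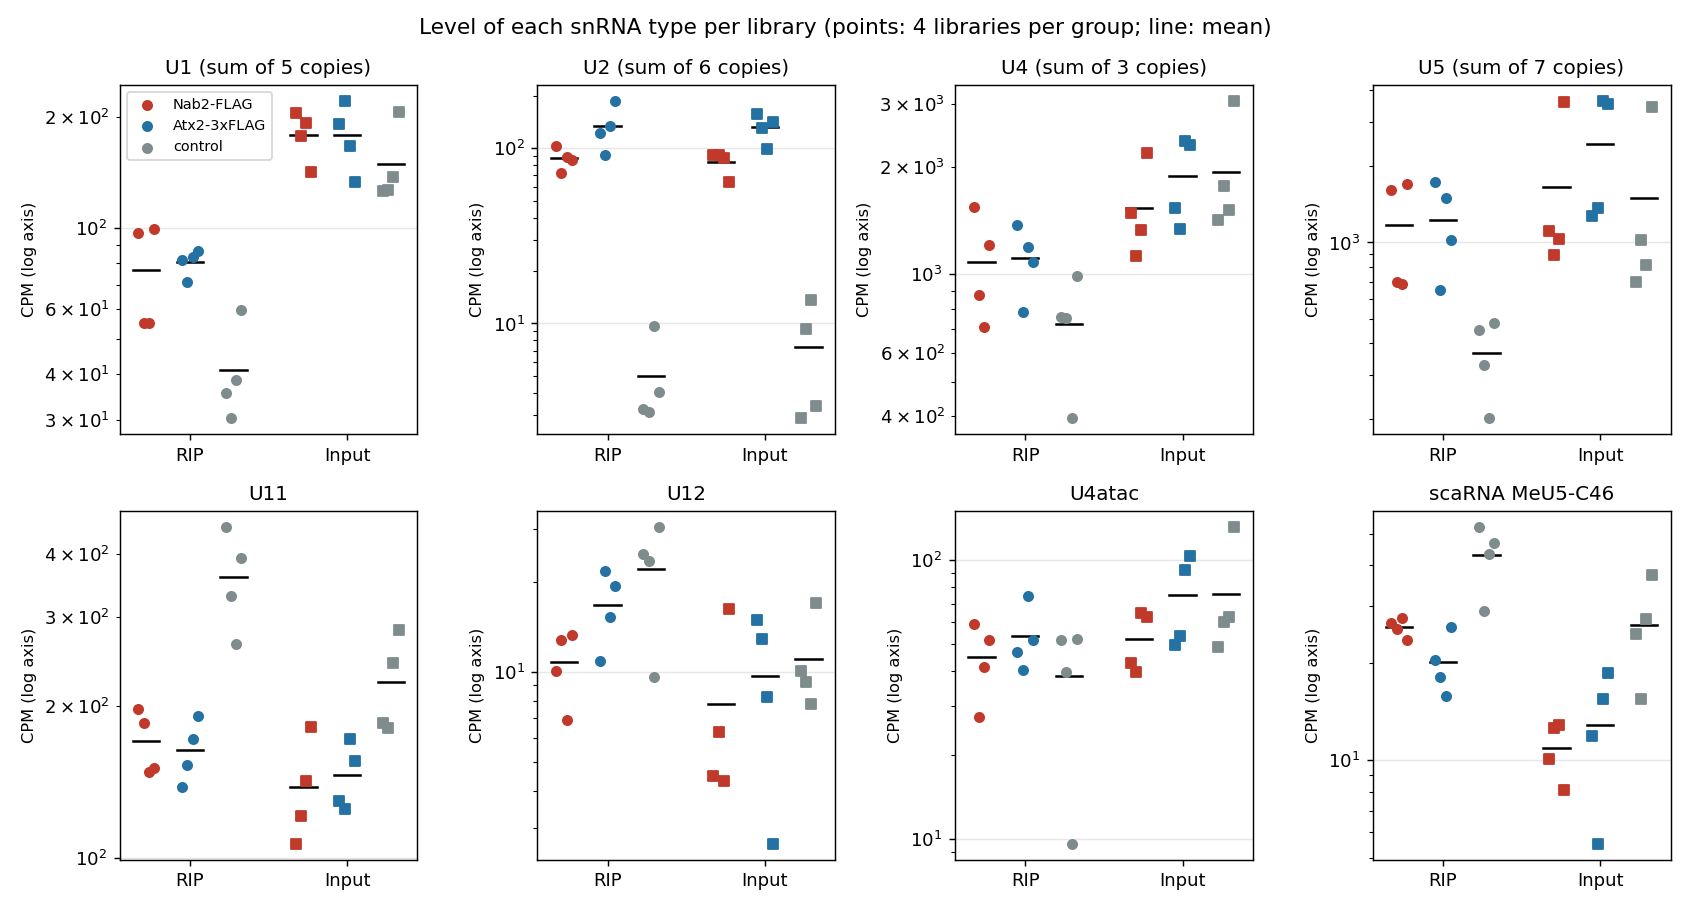
CPM per library, on log axes, for the summed copies of U1, U2, U4 and U5 and for U11, U12, U4atac and scaRNA:MeU5-C46. Circles are RIP and squares Input libraries, 4 per group, lines are group means, and each pool runs from Nab2-FLAG and Atx2-3xFLAG to control; U2 is near 0 in control libraries, and U11 is highest in control RIP.

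Of the 45 members, 15 passed the filter on low counts that left 6147 genes for testing. The other 30 held 0.832% of the member counts, and 5 of them, snRNA:U3, snRNA:U6:96Ab, scaRNA:MeU1b-A234, scaRNA:MeU5-G38 and scaRNA:MeU5-U42, had none. snRNA:U2:34ABa passed through the tagged groups alone, so counts over the 15 describe the genes that could be tested and support nothing further. Differences were fitted across all 6147 genes with edgeR's quasi-likelihood test, and p-values were adjusted over all of them by the Benjamini-Hochberg method; a gene counts as called at an adjusted p under 0.05. Both tagged genotypes were set against the same 4 control lysates.

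Tagged RIP against control RIP gave the most calls. In Nab2-FLAG RIP 8 of the 15 were higher and 3 lower, beside 20.0% of all tested genes called, and the members' median log2 difference was 1.42 against -0.01 for all genes. In Atx2-3xFLAG RIP 6 were higher and 2 lower, beside 24.1% of all genes, with a median of 0.89 against -0.03. These counts depended on single control lysates: without control replicate 1 or 2 the Nab2-FLAG count was 7, and without control replicate 2 the Atx2-3xFLAG count was 5. Leaving out the 4 lysates of the snRNA-rich Inputs gave 5 and 4. Free of any test, all 4 Nab2-FLAG RIP values lay above all 4 control RIP values for 6 of the 15 and below them for 2, and for Atx2-3xFLAG RIP for 7 and 2. Such values were not counted over all tested genes, so these counts have no background to be set against. The U2 copy that passed the filter through the tagged groups alone is among those above in both genotypes, and among the 8 and 6 called higher in RIP. In Input 1 was higher, this same U2 copy, and 2 were lower in each genotype. For Nab2-FLAG Input 12.2% of all genes were called, with medians of 0.01 for the members and -0.02 for all genes. For Atx2-3xFLAG Input the background was 16.5% and the medians were 0.45 and -0.01. Scaled by library size alone, which raised the median of all genes to 0.16 and 0.24, the Input calls were 1 higher and 1 lower for Nab2-FLAG and 1 higher and 0 lower for Atx2-3xFLAG. When the 4 lysates of the snRNA-rich Inputs were left out, Atx2-3xFLAG Input had 7 higher and 1 lower.

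RIP against Input of the same lysates called 1 member higher and 1 lower in Nab2-FLAG, beside 7.82% of all genes, 0 higher and 2 lower in Atx2-3xFLAG, beside 7.76%, and 2 higher and 6 lower in control, beside 7.43%. The members' median log2 differences were 0.13, -0.66 and -1.06 in Nab2-FLAG, Atx2-3xFLAG and control, where the medians of all genes were -0.01, 0.00 and -0.01. With library-size scaling, which raised the median of all genes to 0.37, 0.37 and 0.39, these calls became 3 higher and 1 lower, 3 higher and 2 lower, and 3 higher and 5 lower. Without Atx2-3xFLAG replicate 1, 5 members were called in Atx2-3xFLAG, and without the 4 lysates of the snRNA-rich Inputs 4 were called in Nab2-FLAG. Without control replicate 2 or replicate 4 the control comparison called 3 and 5 members, and without the 4 lysates of the snRNA-rich Inputs it called 3.

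The RIP-to-Input difference of a tagged genotype minus that of the control, called association here, passed for 0 members. The background was 0.0976% of all genes for Nab2-FLAG and 0.0488% for Atx2-3xFLAG. At an unadjusted p under 0.05, 5 members passed in the Nab2-FLAG and 4 in the Atx2-3xFLAG association. Of all 6147 tested genes, 440 and 340 did. DESeq2 called 0 members in either. The members' median association was 0.88 for Nab2-FLAG, with 13 of 15 above 0, and 0.65 for Atx2-3xFLAG, with 11 of 15 above 0, while the medians of all genes were 0.01 and 0.02. The association of Nab2-FLAG minus that of Atx2-3xFLAG passed for 0 members, where 0% of all genes were called, and DESeq2 called 0 members. An unadjusted p under 0.05 was found for 1 member and for 224 of all 6147 genes. The members' median was 0.38 and that of all genes -0.01.

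**Figure D2:**
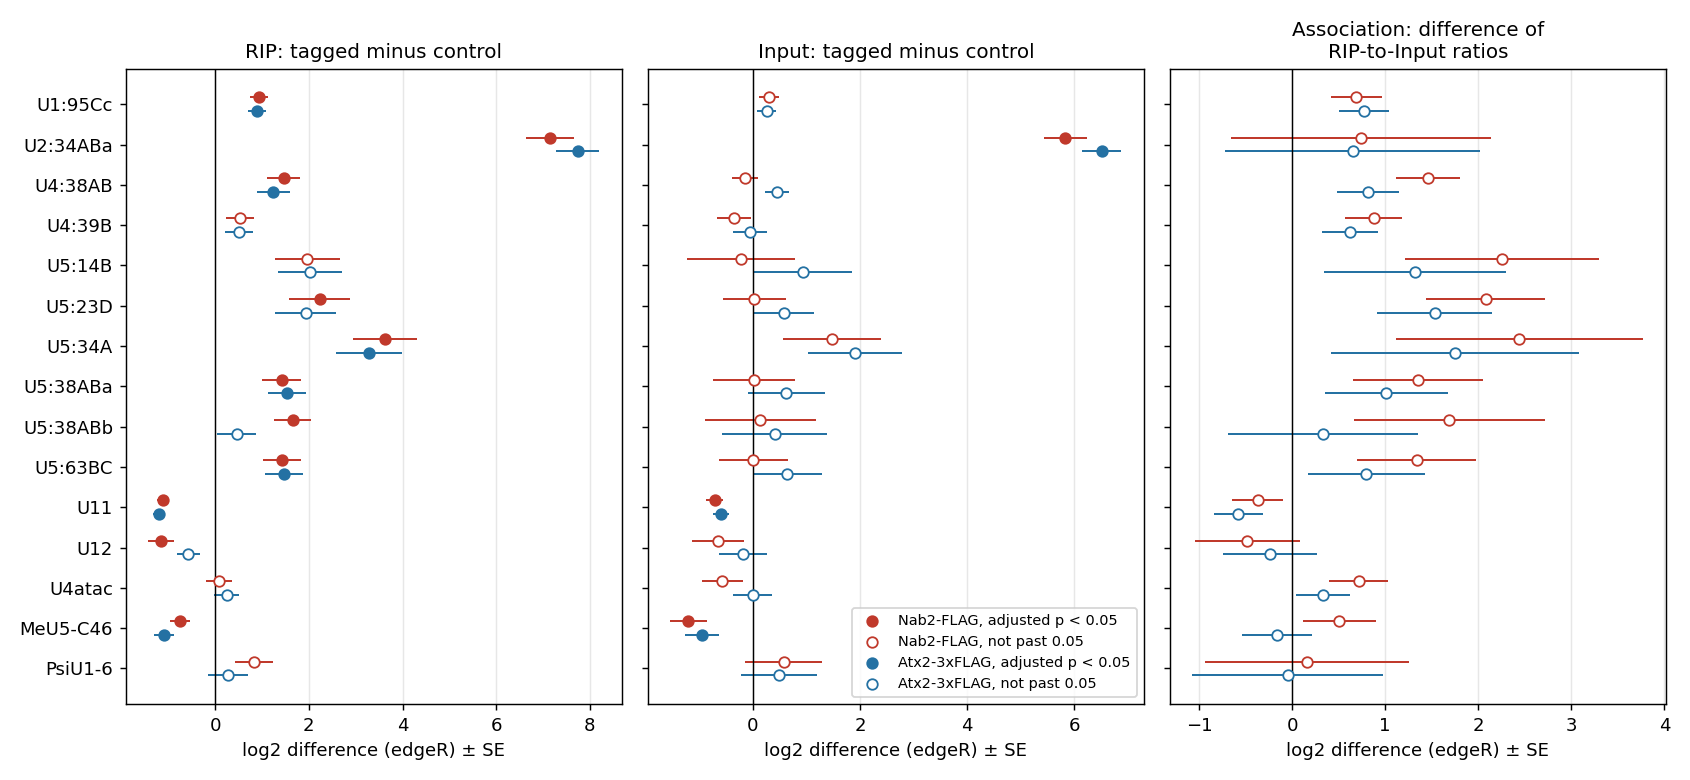
Log2 differences ± SE from edgeR for the 15 tested members: tagged minus control RIP, tagged minus control Input, and the association, which is the difference of the RIP-to-Input log2 ratios. Filled points have an adjusted p under 0.05; U1, U4:38AB and U5 copies lie right of 0 in RIP, U11 and MeU5-C46 lie left of 0 in RIP and Input, and no point of the association panel is filled.

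U1 was recovered less in RIP than in Input in all 3 genotypes, and it was higher in both tagged RIPs than in the control RIP. Of its 5 copies, snRNA:U1:95Cc (chr3R:23826334-23826497, RefSeq positions on Release 6 plus ISO1 MT) held 92.8% of U1 counts, and no other copy passed 10 counts in a library. The U1 sum was 96.8, 55.0, 55.1 and 99.3 CPM in the Nab2-FLAG RIP libraries, 81.9, 71.2, 83.0 and 86.3 CPM in Atx2-3xFLAG RIP and 35.5, 30.4, 38.5 and 59.8 CPM in control RIP. All Atx2-3xFLAG RIP values lay above all control RIP values, while the lower 2 of Nab2-FLAG lay just under the highest control. In Input it was 205, 178, 192 and 141 CPM for Nab2-FLAG, 191, 221, 167 and 133 CPM for Atx2-3xFLAG and 125, 127, 137 and 207 CPM for control, with overlapping groups.

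Against control RIP the U1 sum was higher by a log2 of 0.98 ± 0.21 (SE; adjusted p = 0.00174, edgeR quasi-likelihood) in Nab2-FLAG RIP and 0.91 ± 0.21 (SE; adjusted p = 0.00219, edgeR quasi-likelihood) in Atx2-3xFLAG RIP. The log2 difference of RIP from Input was -1.16 in Nab2-FLAG, -1.10 in Atx2-3xFLAG and -1.87 in control (edgeR quasi-likelihood, adjusted p = 6.06e-07, 4.91e-07 and 1.05e-09), and RIP was below Input in every one of the 12 lysates. Input differed by 0.28 and 0.25 and did not pass. The association of the U1 sum was 0.71 ± 0.24 (SE; adjusted p = 0.353, edgeR quasi-likelihood) for Nab2-FLAG and 0.77 ± 0.23 (SE; adjusted p = 0.461, edgeR quasi-likelihood) for Atx2-3xFLAG. Its difference between the tagged genotypes was -0.06 ± 0.20 (SE). U1:95Cc lies inside the protein gene CG34355, whose own log2 differences from control RIP were -0.19 and -0.17 and did not pass.

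**Figure D3:**
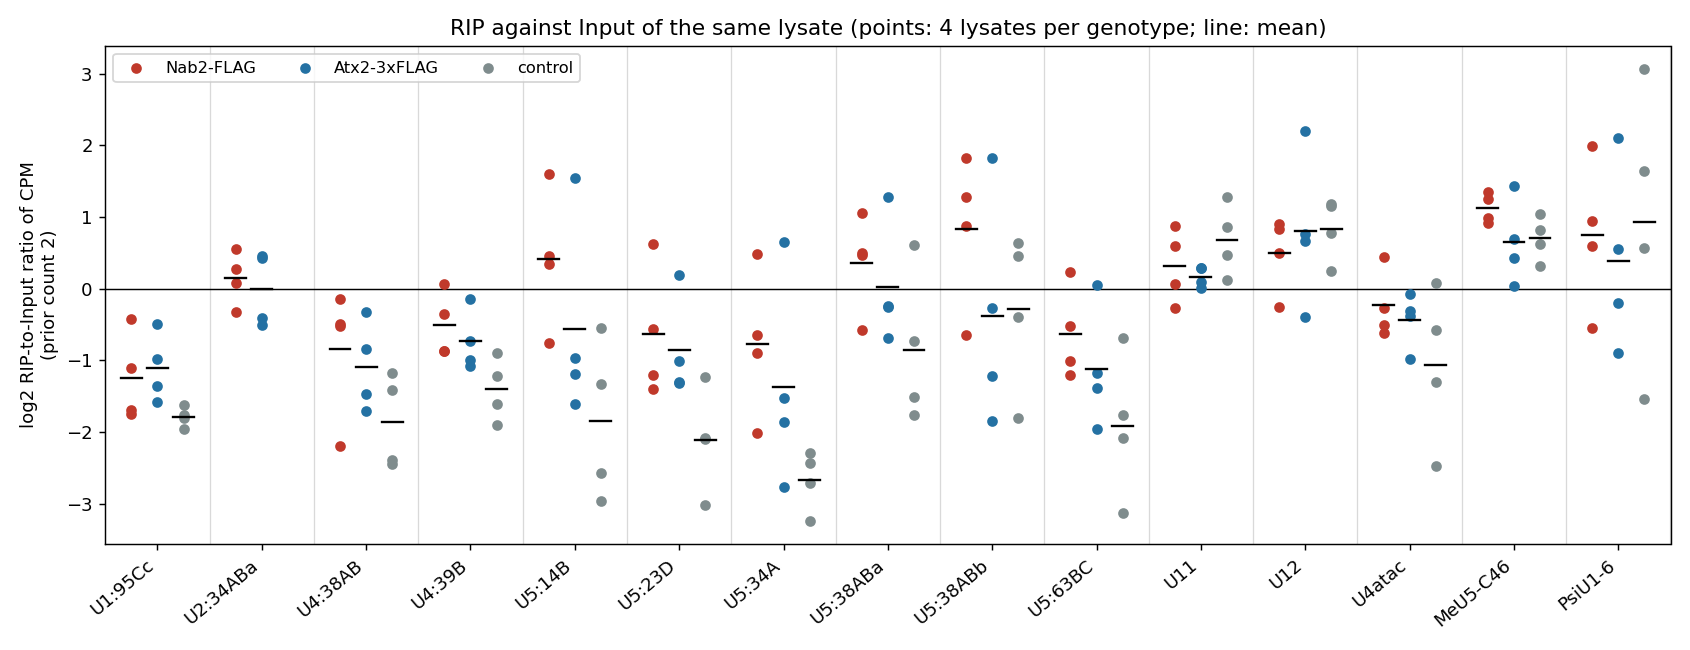
Log2 ratio of RIP to Input CPM, with a prior count of 2, for each lysate and tested member. Points are the 4 lysates of Nab2-FLAG, Atx2-3xFLAG and control, from left to right, and lines are means; U2:34ABa is not drawn for control, where it has at most 2 counts, and U1:95Cc is below 0 in all 12 lysates.

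U2 was counted almost wholly at a single gene copy, and almost wholly in the tagged genotypes. snRNA:U2:34ABa (FBgn0004191, chr2L:13211925-13212116) had 246, 72, 26 and 139 counts in Nab2-FLAG RIP, 96, 127, 260 and 416 in Atx2-3xFLAG RIP and 0, 1, 0 and 1 in control RIP. In Input it had 73, 85, 59 and 28 counts in the Nab2-FLAG libraries, 156, 69, 93 and 101 in those of Atx2-3xFLAG and 1, 0, 2 and 0 in control. Tagged and control libraries did not overlap in either pool. The other 5 U2 copies, summed, differed between genotypes by less than their spread and had 5.77 ± 3.22 CPM in Nab2-FLAG Input, 4.10 ± 1.73 CPM in Atx2-3xFLAG Input and 5.97 ± 4.19 CPM in control Input (SD, n = 4 each). The same 5 copies had 2.20 ± 1.82, 3.81 ± 1.77 and 4.65 ± 3.35 CPM in Nab2-FLAG, Atx2-3xFLAG and control RIP. Their highest copy, snRNA:U2:34ABc, reached 7 counts in a library.

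In RIP the summed counts of U2:34ABa per effective library size were 172 times control in Nab2-FLAG, with an exact 95% interval from 47.5 to 1428, and 269 times control in Atx2-3xFLAG, from 74.2 to 2222. In Input the ratios were 65.6, from 22.2 to 320.4, and 104, from 35.4 to 507. These intervals rest on 2 control counts in RIP and 3 in Input and cover counting error only. RIP and Input of the tagged genotypes did not differ past the threshold, at log2 differences of 0.13 ± 0.17 for Nab2-FLAG and 0.04 ± 0.14 for Atx2-3xFLAG (SE). The copy was thus nearly uncounted in control Input as well as in control RIP, and whether the control stock carries this copy was not tested. Because the copies are nearly identical, reads could be split among them by the counting, and the setting for reads with several matches was not given in the sources used here.

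U4, the partner that keeps U6 inactive until the spliceosome is assembled, came from snRNA:U4:39B (chr2L:21215036-21215178), with 96.8% of U4 counts, and from snRNA:U4:38AB; snRNA:U4:25F had 1 count in all. The U4 sum was 1543, 873, 713 and 1203 CPM in Nab2-FLAG RIP, 1374, 784, 1190.4 and 1079 CPM in Atx2-3xFLAG RIP and 757, 752, 395 and 990.2 CPM in control RIP. These groups overlapped, and the differences from control of 0.57 and 0.55 did not pass. In Input it was 1486, 1126, 1326 and 2192 CPM, 1529, 1339, 2365 and 2306 CPM and 1418, 1765, 1512 and 3063 CPM for Nab2-FLAG, Atx2-3xFLAG and control. The log2 difference of RIP from Input was -0.50, -0.76 and -1.38 in Nab2-FLAG, Atx2-3xFLAG and control, and that of the control passed (edgeR quasi-likelihood, adjusted p = 0.230, 0.0625 and 0.00459); without the 4 lysates of the snRNA-rich Inputs the control value was -1.27, adjusted p = 0.0647. The test of the difference itself is the association, 0.88 ± 0.31 (SE; adjusted p = 0.548, edgeR quasi-likelihood) for Nab2-FLAG and 0.62 ± 0.31 (SE; adjusted p = 0.876, edgeR quasi-likelihood) for Atx2-3xFLAG.

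The minor copy U4:38AB was called higher in both tagged RIPs. It had 50.4, 28.5, 6.89 and 48.2 CPM in Nab2-FLAG RIP, 42.1, 18.9, 44.3 and 36.4 CPM in Atx2-3xFLAG RIP and 16.1, 15.6, 9.63 and 13.6 CPM in control RIP. Every Atx2-3xFLAG value lay above every control value, and Nab2-FLAG replicate 3, from a library of 254077 counts, lay below them all. It was higher than control by 1.47 ± 0.35 (SE; adjusted p = 0.00666, edgeR quasi-likelihood) in Nab2-FLAG RIP and by 1.24 ± 0.35 (SE; adjusted p = 0.0164, edgeR quasi-likelihood) in Atx2-3xFLAG RIP. Neither passed without the 4 lysates of the snRNA-rich Inputs (log2 1.29, adjusted p = 0.0555, and log2 0.85, adjusted p = 0.291). The Atx2-3xFLAG call was lost without control replicate 2 (log2 1.31, adjusted p = 0.0531) or control replicate 4 (log2 1.20, adjusted p = 0.0615). Its log2 association of 1.46 ± 0.34 (SE; adjusted p = 0.0619, edgeR quasi-likelihood) for Nab2-FLAG had the smallest adjusted p of any member. This value passed without control replicate 1 (log2 1.68, adjusted p = 0.0368) or without Nab2-FLAG replicate 3 (log2 1.57, adjusted p = 0.00922), without both of the shallowest RIP lysates (log2 1.54, adjusted p = 0.0268) and without the filter on low counts (log2 1.44, adjusted p = 0.00310), while DESeq2's Wald test gave an adjusted p of 0.483. For Atx2-3xFLAG the association was 0.82 ± 0.33 (SE; adjusted p = 0.825, edgeR quasi-likelihood). U4:38AB sits inside the protein gene sick with 2 U5 and 2 U2 copies, and sick differed from control RIP by 0.12 and -0.13 without passing.

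U5, which holds the exons in place for joining, was counted at 7 copies, of which snRNA:U5:63BC (chr3L:3090801-3090923) took 61.4% of counts and snRNA:U5:35D had at most 3 counts in a library. The U5 sum was 1613, 698, 682 and 1695 CPM in Nab2-FLAG RIP, 1729, 649, 1498 and 1020.4 CPM in Atx2-3xFLAG RIP and 449, 327, 202 and 482 CPM in control RIP. All 8 tagged values lay above all 4 control values. In Input it was 1106, 894, 1031 and 3606 CPM in the Nab2-FLAG libraries, 1273, 1374, 3631 and 3532 CPM in those of Atx2-3xFLAG and 698, 1025, 814 and 3437 CPM in those of the control. The 4 snRNA-rich Inputs stand out in these values, and the groups overlapped.

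The U5 sum was higher than control RIP by 1.65 ± 0.43 (SE; adjusted p = 0.0255, edgeR quasi-likelihood) in Nab2-FLAG and 1.65 ± 0.43 (SE; adjusted p = 0.0210, edgeR quasi-likelihood) in Atx2-3xFLAG. The Nab2-FLAG call was lost, at log2 1.42 to 1.73 and adjusted p of 0.0545 to 0.0759, when control replicate 1, 2 or 3 or Nab2-FLAG replicate 1 or 4 was left out, and the Atx2-3xFLAG call, at 1.44 to 1.58 and 0.0524 to 0.0637, without control replicate 2 or Atx2-3xFLAG replicate 1 or 3. Without the 4 lysates of the snRNA-rich Inputs the U5 differences were 1.55, adjusted p = 0.179 for Nab2-FLAG and 1.72, adjusted p = 0.157 for Atx2-3xFLAG. With all 24 libraries in one fit neither passed (edgeR quasi-likelihood, log2 1.64, adjusted p = 0.0668, and log2 1.67, adjusted p = 0.0526). In Input the differences were 0.13 ± 0.69 and 0.71 ± 0.69 (SE), and neither passed. The association of the sum was 1.42 ± 0.64 (SE; adjusted p = 0.703, edgeR quasi-likelihood) for Nab2-FLAG and 0.83 ± 0.64 (SE; adjusted p = 0.938, edgeR quasi-likelihood) for Atx2-3xFLAG. RIP minus Input was -0.37, -0.95 and -1.79 in Nab2-FLAG, Atx2-3xFLAG and control, and 0 of these passed.

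Copy by copy, U5:63BC, U5:38ABa and U5:34A were called higher in both tagged RIPs, and U5:23D and U5:38ABb in Nab2-FLAG RIP. U5:63BC had 889, 399.8, 358 and 929 CPM in Nab2-FLAG RIP, 899.5, 405, 909.7 and 577 CPM in Atx2-3xFLAG RIP and 321, 219, 135 and 257 CPM in control RIP, and its log2 differences from control were 1.42 and 1.46 (edgeR quasi-likelihood, adjusted p = 0.0373 and 0.0277). U5:38ABa had 188, 89.4, 86.1 and 180.0 CPM, 231, 89.4, 179 and 163 CPM and 51.7, 37.5, 24.1 and 80.1 CPM in Nab2-FLAG, Atx2-3xFLAG and control RIP, with differences of 1.42 and 1.53 (adjusted p = 0.0421 and 0.0240). For both copies the groups did not overlap. U5:23D, inside the fatty acid synthase gene FASN2, had 171, 38.3, 27.6 and 178 CPM in Nab2-FLAG RIP, 144, 48.9, 134 and 88.1 CPM in Atx2-3xFLAG RIP and 25.8, 21.9, 14.5 and 31.9 CPM in control RIP. Its differences were 2.24 with Nab2-FLAG and 1.93 with Atx2-3xFLAG (edgeR quasi-likelihood, adjusted p = 0.0394 and 0.0617). FASN2 itself was higher in Atx2-3xFLAG by 2.86 in RIP and 3.29 in Input (edgeR quasi-likelihood, adjusted p = 1.45e-09 and 2.35e-12). In Nab2-FLAG it was higher by 1.33 in Input (adjusted p = 0.0114), and its 0.61 in RIP did not pass (adjusted p = 0.229). The part of FASN2 reads in the U5:23D counts was not tested. U5:14B had 140.0, 55.0, 51.7 and 176 CPM in Nab2-FLAG RIP, 246, 40.5, 139 and 108 CPM in Atx2-3xFLAG RIP and 26.9, 17.9, 4.82 and 48.9 CPM in control RIP, and its differences of 1.96 and 2.02 did not pass (adjusted p = 0.0797 and 0.0600).

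Most U5 calls of single copies depended on single lysates and on the settings of the fit. For Nab2-FLAG, the calls of U5:63BC, U5:23D and U5:38ABa were lost with 6, 6 and 5 of 8 lysates left out in turn (log2 1.23 to 1.61, 1.97 to 2.47 and 1.25 to 1.41; adjusted p 0.0543 to 0.1002, 0.0636 to 0.113 and 0.0673 to 0.121), control replicates 1, 2 and 3 and Nab2-FLAG replicates 1 and 4 among them each time and control replicate 4 for the first 2. For Atx2-3xFLAG, that of U5:63BC was lost without control replicate 2, 3 or 4 or Atx2-3xFLAG replicate 1 or 3 (log2 1.32 to 1.51, adjusted p 0.0540 to 0.0745), and that of U5:38ABa without control replicate 1 or 2 or Atx2-3xFLAG replicate 3 (log2 1.37 to 1.53, adjusted p 0.0564 to 0.0760). Without the 4 lysates of the snRNA-rich Inputs, U5:34A in Nab2-FLAG RIP was the U5 call kept.

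U5:38ABb passed in Nab2-FLAG RIP and not in Atx2-3xFLAG RIP. It had 120.3, 72.7, 99.9 and 127 CPM in Nab2-FLAG RIP, 89.1, 27.2, 50.9 and 38.6 CPM in Atx2-3xFLAG RIP and 20.5, 28.9, 19.3 and 50.9 CPM in control RIP. Every Nab2-FLAG value lay above every control value, and Atx2-3xFLAG overlapped the control. It was higher than control by 1.66 ± 0.39 (SE; adjusted p = 0.0144, edgeR quasi-likelihood) in Nab2-FLAG RIP, a call lost without control replicate 2 (log2 1.59, adjusted p = 0.0508), and the difference in Atx2-3xFLAG RIP was 0.46 ± 0.42 (SE; adjusted p = 0.499, edgeR quasi-likelihood). The difference between the associations of the tagged genotypes was 1.36 ± 0.86 (SE) and did not pass, and the RIP levels of the tagged genotypes were not tested against each other.

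snRNA:U5:34A (chr2L:13244848-13244974) had the largest log2 difference from control RIP after U2:34ABa. It had 103, 42.2, 58.6 and 104 CPM in Nab2-FLAG RIP, 118, 37.7, 85.1 and 45.1 CPM in Atx2-3xFLAG RIP and 3.23, 2.34, 4.82 and 12.9 CPM in control RIP, which in counts was 3, 3, 1 and 19 for the control. The differences were 3.63 ± 0.69 (SE; adjusted p = 0.00472, edgeR quasi-likelihood) for Nab2-FLAG and 3.29 ± 0.70 (SE; adjusted p = 0.00772, edgeR quasi-likelihood) for Atx2-3xFLAG. In Input it had 73.0, 80.6, 93.2 and 424 CPM in the Nab2-FLAG libraries, 74.4, 112, 316 and 318 CPM in those of Atx2-3xFLAG and 26, 26.3, 31.3 and 139 CPM in those of the control, and the differences of 1.48 and 1.91 did not pass. As a share of all U5 counts of a library, which sets aside how much U5 a library holds, U5:34A took 6.61, 9.02, 9.04 and 11.8% in Nab2-FLAG Input, 5.84, 8.18, 8.70 and 9.01% with Atx2-3xFLAG and 3.72, 2.56, 3.85 and 4.04% in the control. In RIP the shares were 6.41, 6.05, 8.59 and 6.11%, 6.82, 5.81, 5.68 and 4.42% and 0.719, 0.716, 2.38 and 2.68% in Nab2-FLAG, Atx2-3xFLAG and control. Tagged and control shares did not overlap in either pool, the snRNA-rich Inputs included.

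Shares of the 6 tested U5 copies and of U4:38AB were compared in 28 two-sided exact permutation tests of 4 against 4 libraries. Exact permutation gave p = 0.0286 for U5:34A, the smallest such a test allows, in all 4 of its comparisons, with a Benjamini-Hochberg value of 0.16. The 28 tests include none under 0.05 after adjustment. With this smallest p, a pass would need most of the 28 tests to reach it, so the lack of one decides nothing. U5:23D gave the same p in Atx2-3xFLAG RIP alone, at 8.36, 7.53, 8.95 and 8.63% of U5 counts in Atx2-3xFLAG RIP and 5.76, 6.68, 7.14 and 6.62% in control RIP. The share of U5:34A was chosen for description after its values were seen. In the reference genome U5:34A lies 286 bases from snRNA:U2:34ABc and 32731 bases from U2:34ABa, the copy nearly absent from control. Whether the control differs from the tagged stocks in this stretch of chromosome arm 2L was not tested.

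**Figure D4:**
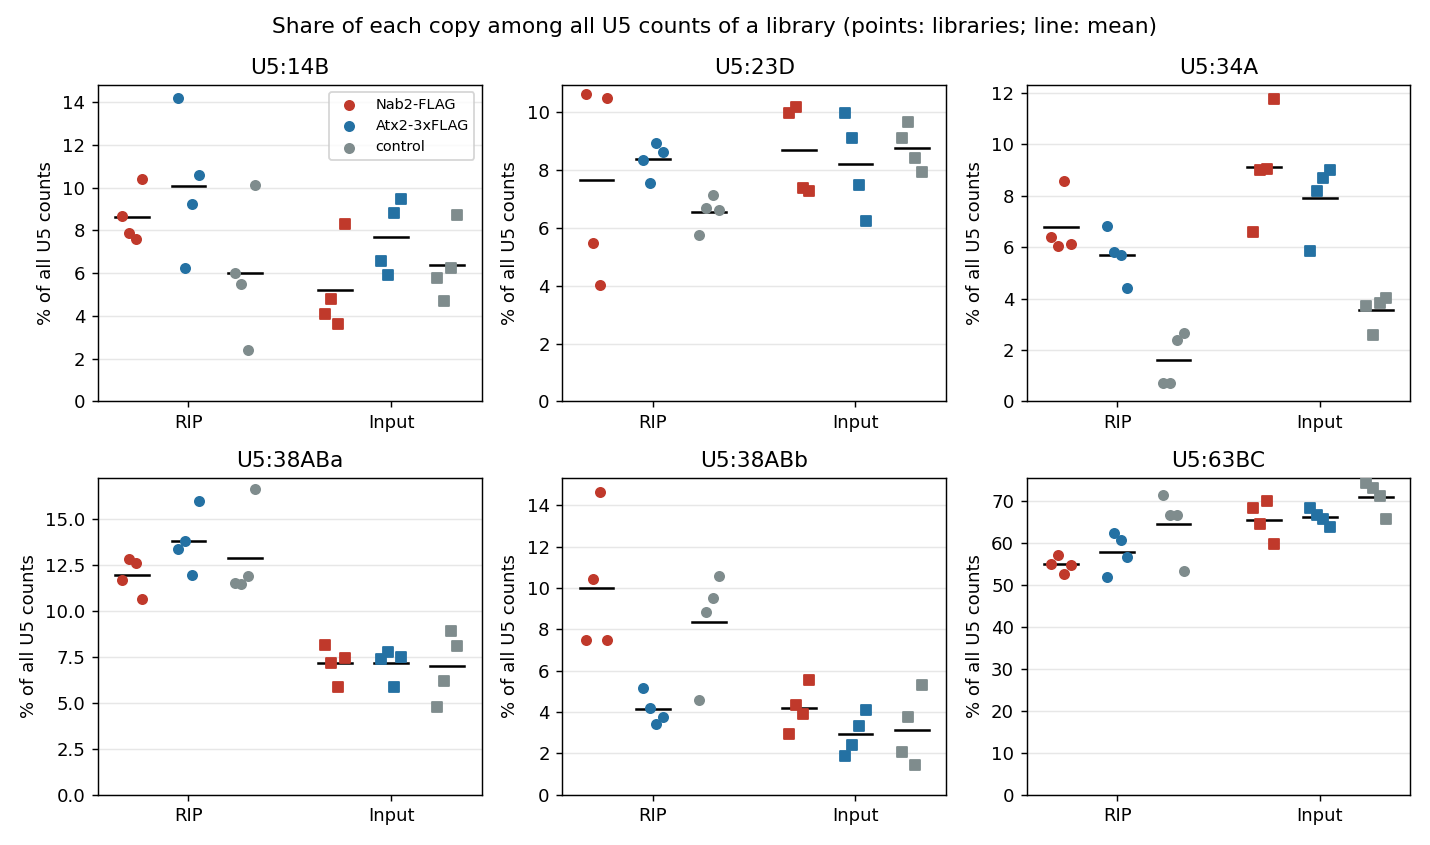
Percent of all U5 counts of a library that fell on each of the 6 tested copies, axes starting at 0. Circles are RIP and squares Input libraries of Nab2-FLAG, Atx2-3xFLAG and control, lines are means; the shares of U5:34A do not overlap between tagged and control libraries in RIP or Input.

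U11, which recognises the upstream splice site of minor introns, was lower in both tagged genotypes than in control, in RIP and in Input. snRNA:U11 (chr3L:3893056-3893330) had 197, 185, 148 and 151 CPM in Nab2-FLAG RIP, 138, 153, 172 and 191 CPM in Atx2-3xFLAG RIP and 452, 329, 265 and 393 CPM in control RIP. All 8 tagged values lay below all 4 control values. In Input it had 107, 121, 142 and 182 CPM in the Nab2-FLAG libraries, 129.9, 125, 172 and 156 CPM in those of Atx2-3xFLAG and 185, 181, 242 and 283 CPM in those of the control, and only Nab2-FLAG replicate 4 reached the control range. The log2 difference of U11 from control was -1.11 ± 0.13 (SE; adjusted p = 1.51e-07, edgeR quasi-likelihood) in Nab2-FLAG RIP and -1.20 ± 0.13 (SE; adjusted p = 1.14e-08, edgeR quasi-likelihood) in Atx2-3xFLAG RIP. It was -0.72 ± 0.16 (SE; adjusted p = 0.00129, edgeR quasi-likelihood) in Nab2-FLAG Input and -0.60 ± 0.15 (SE; adjusted p = 0.00476, edgeR quasi-likelihood) in Atx2-3xFLAG Input, and both Input calls were lost with library-size scaling (log2 -0.53, adjusted p = 0.0650, and log2 -0.35, adjusted p = 0.199). The association was -0.37 ± 0.27 and -0.58 ± 0.26 (SE), and did not pass. In bulk heads, fewer cells of a type and less RNA per cell cannot be told apart. U11 lies inside the protein gene Fie, whose log2 differences from control were 0.11 and 0.06 in RIP and -0.28 and -0.04 in Input, none of which passed.

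Control RIP exceeded control Input for U11, by 0.74 ± 0.18 (SE; adjusted p = 0.0295, edgeR quasi-likelihood), a call lost without control replicate 2 (log2 0.70, adjusted p = 0.140). U12, the partner of U11 in the minor spliceosome, was a low-count gene, with 356 counts over all libraries. It had 10.1, 12.8, 6.89 and 13.2 CPM in Nab2-FLAG RIP, 10.8, 21.6, 15.3 and 19.3 CPM in Atx2-3xFLAG RIP and 24.8, 23.4, 9.63 and 30.6 CPM in control RIP, and both tagged groups overlapped the control. The log2 difference from control was -1.15 ± 0.27 (SE; adjusted p = 0.00162, edgeR quasi-likelihood) in Nab2-FLAG RIP, which passed, and -0.57 ± 0.24 (SE; adjusted p = 0.0821, edgeR quasi-likelihood) in Atx2-3xFLAG RIP, which did not. Baldspot, the fatty acid elongase gene around U12, was also lower, with differences of -0.30 and -0.34 in the same comparisons (edgeR quasi-likelihood, adjusted p = 0.0494 and 0.0141). In Input U12 had 4.49, 6.28, 4.30 and 16.2 CPM, 14.9, 12.9, 8.23 and 2.66 CPM and 10.1, 9.28, 7.82 and 16.9 CPM in Nab2-FLAG, Atx2-3xFLAG and control, and did not pass. The call of its rise of 1.05 ± 0.35 (SE; adjusted p = 0.0491, edgeR quasi-likelihood) in control RIP over control Input was lost without control replicate 1, 2 or 4 (log2 0.96 to 1.17, adjusted p 0.113 to 0.205). It was also lost without the 4 lysates of the snRNA-rich Inputs (log2 1.16, adjusted p = 0.108) or without the filter on low counts (log2 1.08, adjusted p = 0.0561).

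U4atac, the minor counterpart of U4, had 58.9, 27.5, 41.3 and 51.8 CPM in Nab2-FLAG RIP, 47.0, 40.5, 74.4 and 51.7 CPM in Atx2-3xFLAG RIP and 51.7, 39.8, 9.63 and 52.3 CPM in control RIP. The low control value is replicate 3, the shallowest library, with 2 counts of this gene. The groups overlapped, and no difference between genotypes passed in either pool. In Input U4atac had 42.7, 39.8, 64.5 and 62.6 CPM, 49.6, 53.4, 92.6 and 104 CPM and 49.0, 60.3, 62.6 and 132 CPM in Nab2-FLAG, Atx2-3xFLAG and control. RIP was lower than Input in the control, with a log2 difference of -0.83 ± 0.23 (SE; adjusted p = 0.0172, edgeR quasi-likelihood), a call lost without control replicate 2 (log2 -0.92, adjusted p = 0.0614) or 4 (log2 -0.50, adjusted p = 0.302), with library-size scaling (log2 -0.45, adjusted p = 0.144), without lysate coefficients (log2 -0.74, adjusted p = 0.289) or without the 4 lysates of the snRNA-rich Inputs (log2 -0.50, adjusted p = 0.273). U6atac had 35 raw counts over all libraries, not scaled for depth and too few to test. Summed over 4 libraries they were 9 in Nab2-FLAG RIP, 8 in Atx2-3xFLAG RIP and 2 in control RIP, and 8, 6 and 2 in the matching Inputs.

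U6, the catalytic snRNA, and U7 were nearly uncounted. snRNA:U6:96Aa had 6 counts and snRNA:U6:96Ac 4 over the 24 libraries, and snRNA:U7 had 6. No library held more than 2 counts of any of them, and no control library held any. With a floor of 3 counts per library, no difference between groups was detectable at this depth. U7 with 71, U6atac with 97 and U6 with 107 bases are the shortest annotated snRNAs of the set. The copies of U5, the most counted type, have 110 to 131 bases and those of U4 142 to 148.

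In the untagged control, both tested U4 copies and 2 of the 6 tested U5 copies were called lower in RIP than in Input, and the other 4 U5 copies did not pass. The log2 differences were -1.94 for U4:38AB, -1.37 for U4:39B, -2.41 for U5:23D and -1.94 for U5:63BC (edgeR quasi-likelihood, adjusted p = 4.40e-07, 0.00478, 0.0192 and 0.0399). Per lysate, the log2 RIP-to-Input ratio of the U5 sum was 0.54, -0.35, -0.59 and -1.09 in the Nab2-FLAG lysates, 0.44, -1.08, -1.28 and -1.79 in those of Atx2-3xFLAG and -0.63, -1.64, -2.0 and -2.83 in control. That of the U4 sum was 0.05, -0.37, -0.89 and -0.86, -0.15, -0.77, -0.99 and -1.09 and -0.90, -1.23, -1.93 and -1.63, and that of the U1 sum was -1.06, -1.66, -1.77 and -0.50, -1.21, -1.61, -0.99 and -0.61 and -1.77, -1.99, -1.78 and -1.76. The U5 ratios spread by more than 1.5 log2 units within each genotype, and those of control U1 by less than 0.3. U5:23D lost its call without control replicate 2 or 4 (log2 -2.50 and -1.83, adjusted p 0.0761 and 0.188), and U5:63BC without control replicate 2, 3 or 4 (log2 -2.0 to -1.40, adjusted p 0.0837 to 0.173). Without the 4 lysates of the snRNA-rich Inputs, U4:39B, U5:23D and U5:63BC did not pass. In Atx2-3xFLAG lysates U4:38AB was lower in RIP, at -1.12 (edgeR quasi-likelihood, adjusted p = 1.66e-05), and in Nab2-FLAG lysates its -0.48 did not pass.

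The scaRNAs were sparse, and 2 of 15 could be tested. scaRNA:MeU5-C46 (chr3R:7472907-7473222), named for the methylation of U5, had 26.6, 25.5, 27.6 and 23.5 CPM in Nab2-FLAG RIP, 20.5, 18.2, 15.8 and 25.8 CPM in Atx2-3xFLAG RIP and 52.8, 28.9, 43.4 and 46.9 CPM in control RIP. All 8 tagged values lay below all 4 control values. In Input it had 10.1, 12.6, 12.9 and 8.08 CPM in the Nab2-FLAG libraries, 11.9, 5.53, 15.4 and 18.6 CPM in those of Atx2-3xFLAG and 24.5, 15.5, 27.4 and 37.3 CPM in those of the control, and Atx2-3xFLAG overlapped the lowest control value. It was lower than control, with a log2 difference of -0.75 ± 0.21 (SE; adjusted p = 0.00819, edgeR quasi-likelihood) in Nab2-FLAG RIP and -1.09 ± 0.21 (SE; adjusted p = 8.76e-05, edgeR quasi-likelihood) in Atx2-3xFLAG RIP, and of -1.20 ± 0.34 (SE; adjusted p = 0.0115, edgeR quasi-likelihood) in Nab2-FLAG Input and -0.95 ± 0.32 (SE; adjusted p = 0.0346, edgeR quasi-likelihood) in Atx2-3xFLAG Input. The Nab2-FLAG RIP call was lost without control replicate 1 or 4 (log2 -0.60 and -0.64, adjusted p 0.0660 and 0.0530), the Nab2-FLAG Input call without control replicate 4 (log2 -0.98, adjusted p 0.0677), and the Atx2-3xFLAG Input call without control replicate 1, 3 or 4 or Atx2-3xFLAG replicate 1 or 2 (log2 -0.98 to -0.72, adjusted p 0.0627 to 0.159). The last of these was lost in 10 of 16 alternatives, among them library-size scaling (log2 -0.70, adjusted p = 0.141), DESeq2 (log2 -0.97, adjusted p = 0.0886) and no filter on low counts (log2 -0.92, adjusted p = 0.0618). Without the 4 lysates of the snRNA-rich Inputs the Atx2-3xFLAG RIP call was kept and the other 3 were not.

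MeU5-C46 was the member called higher in Nab2-FLAG RIP than in its Input, by 1.24 ± 0.30 (SE; adjusted p = 0.00265, edgeR quasi-likelihood). The same difference was 0.57 ± 0.27 (SE; adjusted p = 0.223, edgeR quasi-likelihood) in Atx2-3xFLAG and 0.73 ± 0.24 (SE; adjusted p = 0.0514, edgeR quasi-likelihood) in control. The Nab2-FLAG association was 0.51 ± 0.39 (SE) and did not pass, so the data do not show a larger RIP-to-Input difference than in the control. It lies inside CG1142, a protein gene with too few counts to test. scaRNA:PsiU1-6, named for a pseudouridine in U1, had 12.9, 7.86, 17.2 and 13.2 CPM in Nab2-FLAG RIP, 19.3, 6.28, 8.66 and 4.82 CPM in Atx2-3xFLAG RIP and 8.61, 7.80, 14.5 and 3.40 CPM in control RIP, with 7.87, 3.14, 2.87 and 20.2, 2.98, 3.68, 10.3 and 10.7 and 1.44, 4.64, 0 and 13.6 CPM in the Inputs of Nab2-FLAG, Atx2-3xFLAG and control. The groups overlapped in both pools, and none of its comparisons passed. Of the other 13 scaRNAs, 10 had any count: 81 in Nab2-FLAG RIP, 94 in Atx2-3xFLAG RIP, 34 in control RIP, and 20, 36 and 30 in the matching Inputs, summed over 4 libraries each. These are raw counts, not scaled for the depth of the libraries, which differed between groups. The most counted of these was scaRNA:PsiU2-38.40.42, with 56 counts and at most 12 in a library.

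Protein genes around the snRNAs were read from 4 lists. For the Sm and LSm proteins, which form rings on snRNAs, 12 of 16 listed genes were in the tables and 0 passed the filter. Of 23 genes for snRNP-specific proteins 15 were tested, and a smaller share of them was called than of all genes tested in the same comparisons, where it was 20.0% in Nab2-FLAG RIP, 24.1% in Atx2-3xFLAG RIP, 12.2% in Nab2-FLAG Input and 16.5% in the Input of Atx2-3xFLAG. The 1 lower in Nab2-FLAG RIP than in control RIP was U4-U6-60K, a protein of the U4/U6 snRNP, with a log2 difference of -1.15 ± 0.32 (SE; adjusted p = 0.00844, edgeR quasi-likelihood). In Atx2-3xFLAG RIP 2 were lower, U4-U6-60K at -0.97 ± 0.30 (SE; adjusted p = 0.0152, edgeR quasi-likelihood) and l(3)72Ab, the fly Brr2 helicase that unwinds U4 from U6, at -0.53 ± 0.16 (SE; adjusted p = 0.0130, edgeR quasi-likelihood). In Input 0 passed for Nab2-FLAG and 1 for Atx2-3xFLAG, the U2 snRNP gene Sf3b3, lower at -0.78 ± 0.26 (SE; adjusted p = 0.0288, edgeR quasi-likelihood). The list medians were -0.07 in Nab2-FLAG RIP, -0.21 in Atx2-3xFLAG RIP, and, in Input, -0.20 with Nab2-FLAG and -0.32 with Atx2-3xFLAG, where those of all genes were -0.01, -0.03, -0.02 and -0.01.

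Of 30 listed genes for snRNA transcription, end processing and snRNP assembly, 13 were tested, with 1 and 2 called in Nab2-FLAG and Atx2-3xFLAG RIP and 0 and 1 in their Inputs, no more than those background shares give. IntS1, of the Integrator complex that cuts snRNA precursors, was lower in Nab2-FLAG RIP, at -0.50 ± 0.16 (SE; adjusted p = 0.0220, edgeR quasi-likelihood). In Atx2-3xFLAG IntS3, of the same complex, was higher in RIP by 0.78 ± 0.18 (SE; adjusted p = 0.00138, edgeR quasi-likelihood) and in Input by 0.70 ± 0.23 (SE; adjusted p = 0.0310, edgeR quasi-likelihood), and omd, another Integrator gene, was lower in RIP, at -0.74 ± 0.26 (SE; adjusted p = 0.0316, edgeR quasi-likelihood). The medians of this list were -0.16, -0.24, -0.01 and -0.17 in Nab2-FLAG RIP, Atx2-3xFLAG RIP, Nab2-FLAG Input and Atx2-3xFLAG Input. Of 11 genes for proteins of scaRNA and snoRNA particles 6 were tested, and Nop56, a core protein of the methylation-guide particles, was lower in Atx2-3xFLAG RIP, at -0.92 ± 0.33 (SE; adjusted p = 0.0377, edgeR quasi-likelihood); the medians were -0.07, -0.36, -0.02 and -0.51. In RIP against Input and in the associations 0 genes of the 4 lists passed.

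Markers of cell types differed between genotypes in both pools. The 4 muscle markers summed to 3233 to 3999 CPM in Nab2-FLAG RIP, 2729.6 to 3152 CPM in Atx2-3xFLAG RIP and 1831 to 2505 CPM in control RIP, and the 3 of them tested were all higher in each tagged genotype and pool. The 5 photoreceptor markers summed to 47666 to 59363 CPM in Nab2-FLAG Input, 47783 to 58671 CPM in Atx2-3xFLAG Input and 71038 to 100664 CPM in control Input, and 2 of the 5 were lower and 1 higher in each tagged Input. The 5 neuronal markers summed to 2304 to 2489, 2301 to 2876 and 2487 to 2603 CPM in the same Inputs, with 1 of the 5 lower with Nab2-FLAG and 2 higher with Atx2-3xFLAG. The 4 fat body markers summed to 61629.7 to 74156, 43463 to 50822 and 74757 to 98691 CPM, mostly from Yp1. Of these 4, 1 was higher and 0 lower with Nab2-FLAG, and 1 was higher and 2 lower with Atx2-3xFLAG. Lsp2 went against the sum, with 783 to 1084, 631 to 682 and 224 to 281 CPM in the same Inputs. The 4 glial markers summed to 1084 to 1104, 774 to 851 and 699 to 815 CPM, with 1 higher with Nab2-FLAG and 0 called with Atx2-3xFLAG. Ovary and germ line markers, absent from heads, summed to at most 2.25 CPM in any library, with 3 to 5 of their 5 genes at 0 in a group. snRNA:7SK, a short nuclear RNA outside the set, was lower in tagged libraries, with log2 differences of -1.43 and -1.27 in RIP and -0.95 and -1.06 in Input for Nab2-FLAG and Atx2-3xFLAG (edgeR quasi-likelihood, adjusted p = 6.45e-06, 1.38e-05, 0.00127 and 0.000328), the direction of U11 and MeU5-C46. The part of these shifts in the snRNA results was not tested.

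The authors' deposited table of percent input lists 13 of the 15 tested members, without U2:34ABa and PsiU1-6. In the authors' deposited table the ratio of percent input to control was above 1 for 11 of the 13 in Nab2-FLAG and for 12 in Atx2-3xFLAG, beside 50.6% and 50.3% of all 5760 genes listed there. U5:34A has the highest ratios in the authors' deposited table, 6.10 with Nab2-FLAG and 4.98 with Atx2-3xFLAG, and U11 the lowest, 0.776 and 0.663. None of the 13 has a Dunnett p under 0.05 in the authors' deposited table, where U4:39B in Nab2-FLAG comes nearest at 0.054, with a ratio of 1.87. The share of all listed genes with such a Dunnett p was not counted. By the authors' one-way analysis of variance 5.42% of all listed genes have a p under 0.05, and the lowest of the 13 is 0.0794. At such a share 0 of 13 does not set the members apart from other genes.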

How the data were processed

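The deposited files used here hold raw counts of reads per gene, one table for each of the 24 libraries, which the authors made with STAR 2.6.0b-1 and featureCounts 1.6.3 on build BDGP6, per the submitters' processing notes. Libraries were depleted of ribosomal RNA and kept strand, per the labels' protocols. The strand setting of the counting, the annotation release and the treatment of reads with several matches are not given in the sources used here, so near-identical copies and genes inside other genes are uncertain, and copies are also given as sums. The authors' deposited table of percent input gives a ratio to control and Dunnett p-values, made by the authors from normalised counts (DESeq2 2.11.40.2, per the submitters' processing notes); 24 per-sample columns of that table were not used. The depth ranged between 220894 and 2109561 counts, and no pair of replicates matched within counting error, with a chi-square per degree of freedom of 1.39 to 6.54.

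Counts were fitted with edgeR 4.0.16 in R 4.3.3 (filterByExpr, trimmed-mean scaling, quasi-likelihood F test, Benjamini-Hochberg adjustment over all genes tested), and the scripts were tested on simulated data. RIP and Input of one lysate were paired through lysate coefficients, as the labels give a shared lysate; their deviations from the group means correlated at a median r of 0.182. Genotypes were compared within RIP and within Input, since these were pooled for sequencing apart. Log2 ratios used a prior count of 2. Every member that passed the filter was named, and of the protein-gene lists up to 4 per comparison with an adjusted p under 0.05. Alternatives were size factors or library size alone, no filter, DESeq2 1.42.0, other blocks, all 24 libraries in one fit and leaving out each lysate; leaving out the 2 shallowest RIP lysates or the 4 with snRNA-rich Inputs was added after seeing the data. The members, lists and tests were chosen with earlier results of these data known. Exact permutation tests used scipy 1.17.1. Positions come from a RefSeq gene table of assembly Release 6 plus ISO1 MT, in which 44 of the 45 symbols had a match.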

Additional observations from a re-analysis of the deposited data

Results flagged for a closer look

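Among 168 groups of 4 values examined for the tested members and type sums, 10 held a value whose gap to its nearest neighbour passed Dixon's 95% critical value for 4 samples, where chance flags about 1 in 20 groups, or 8.4.

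Most came from the snRNA-rich Inputs. In Nab2-FLAG Input replicate 4, log2 CPM was 8.23 for U5:14B, against 5.29 to 5.55 in the other 3 libraries. The same library had 8.73 for U5:34A (others 6.23 to 6.57), 7.66 for U5:38ABb (others 5.11 to 5.40) and 11.82 for the U5 sum (others 9.81 to 10.11). It also had the lowest U2 sum of its group, at 6.06 (others 6.48 to 6.56). In control Input replicate 4, log2 CPM was 8.24 for U5:14B (others 5.40 to 5.72), 7.14 for U5:34A (others 4.80 to 5.05) and 7.61 for U1:95Cc (others 6.86 to 6.97).

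In control RIP replicate 3, the shallowest library, U4atac was at a log2 CPM of 3.53 (others 5.38 to 5.76), from 2 counts. The log2 RIP-to-Input ratio of the U1 sum was -1.99 in control lysate 2, where the other 3 lay between -1.78 and -1.76.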

How the results depend on the processing

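For the 71 gene and sum results examined, 890 values under other settings had the direction of the reported value in every case; 778 stayed on the same side of an adjusted p of 0.05, 101 lost the call and 11 gained one. Of 37 member calls 17 and of 12 calls of sums 9 were kept under every setting tried. Of 148 counts of called members 125 were within 1.5 times the reported count. With scaling by library size alone, RIP against Input called 4 members in Nab2-FLAG and 5 in Atx2-3xFLAG (2 in each as reported), and Atx2-3xFLAG Input called 1 (reported 3). DESeq2's Wald test, with 12 members tested, called 1 in Nab2-FLAG and 5 in Atx2-3xFLAG for RIP against Input. Without the filter on low counts the Nab2-FLAG association called 1 (reported 0), as it did without the 2 shallowest RIP lysates. Without the 4 lysates of the snRNA-rich Inputs, which also left fewer libraries, the counts were 4 for Nab2-FLAG and 3 for control in RIP against Input (reported 2 and 8), 5 and 4 for Nab2-FLAG and Atx2-3xFLAG against control RIP (reported 11 and 8), and 8 for Atx2-3xFLAG Input (reported 3). The cause of these changes was not tested.

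Leaving out each lysate in turn gave 2 to 5 calls for Atx2-3xFLAG and 3 to 7 for control in RIP against Input, 0 to 1 for the Nab2-FLAG association, 7 to 11 for Nab2-FLAG against control RIP and 5 to 10 for Atx2-3xFLAG against control RIP. With the replicate number as a replicate block, the association called 9 members for Nab2-FLAG and 8 for Atx2-3xFLAG, of which 7 higher and 1 lower, and its difference between the genotypes called 3, where the reported fits called 0. The share of all genes called was not counted under this block or the other alternative settings, so these counts have no background to be set against. Under this block the association of U4:38AB in Nab2-FLAG passed (edgeR quasi-likelihood, log2 1.34, adjusted p = 0.00366), and so did those of the sums. Their log2 values for U1, U4 and U5 were 0.78, 0.88 and 1.42 with Nab2-FLAG and 0.84, 0.65 and 0.87 with Atx2-3xFLAG. The reported fits gave nearly the same values without passing, as for U5 in Nab2-FLAG at 1.42 (edgeR quasi-likelihood, adjusted p = 0.703). What changed was the spread that the fit estimates, so these passes are not read as results. With a replicate block the U4atac difference in control lost its call (edgeR quasi-likelihood, log2 -0.70, adjusted p = 0.196). The labels do not say that numbers pair lysates of different genotypes, and the required correlation above 0.1 in every pair was not met: same-numbered lysates of different genotypes had RIP-to-Input deviations correlated at r of -0.13 to 0.42, over 0.1 in 5 of 12 pairs. Of the 12 lysates, 6 correlated best with one of their own number, a hint from the data and not the design. The log2 RIP-to-Input ratio of the U5 sum fell from number 1 to number 4 in each genotype, from 0.54 to -1.09 in Nab2-FLAG, 0.44 to -1.79 in Atx2-3xFLAG and -0.63 to -2.83 in control. Whether numbers mark lysates handled together was not tested. At this depth U6, U7, U6atac and 13 scaRNAs had counts too low for a test. U2:34ABa was tested, but its control level rests on at most 2 counts in a library.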
